A study of Homo sapiens with 15 samples.

Results

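Interferon-stimulated genes are the genes that a cell turns on when interferon binds its receptors, and 41 of them were followed in MDA-MB231 cells, a triple-negative human breast cancer line. The 41 genes were taken by name from the probe annotation of the arrays, through the listed or the current symbol, and the rule that names them uses no measured value, although the list was chosen with earlier results of these data known. They were read by 61 of the 41000 gene probes, and they are 41 of the 30992 genes on the array. XAF1 is listed on the array as BIRC4BP and IRF9 as ISGF3G. RNA was compared on 15 2-colour arrays, 5 for cells with stable RNA interference of CtBP2 (shCtBP2), 5 for cells given the CtBP inhibitor HIPP and 5 for cells given the CtBP inhibitor P4. Treated RNA carried Cy5 and control RNA carried Cy3 on every array, so a dye effect of a gene cannot be told apart from a treatment effect in any single ratio. The labels name untreated MDA-MB-231 cells as the control of all 3 treatments and give a time of 24 h for HIPP and P4, whereas the methods set shCtBP2 cells against cells with a scrambled shRNA. Per the methods, the shRNA and the scrambled control were transfected stably and followed by puromycin selection, and whether the line is 1 clone is not given in the sources used here. HIPP is sodium 2-hydroxyimino-3-phenylpropanoate and P4 is sodium 2-hydrazone-3-phenylpropanoate, and their concentrations on the arrays are not given in the sources used here, while the methods name different ones for counts of cells.

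Type I and type III interferons act through receptor-bound JAK kinases on a complex that holds STAT2 and IRF9 and binds the interferon-stimulated response element. Interferon gamma acts on the gamma activated sequence. The genes they turn on include sensors of foreign RNA, enzymes that degrade or hide RNA, membrane proteins that block entry or release of viruses, and brakes on the pathway itself. CtBP2 is a corepressor of transcription that binds NADH, and HIPP and P4 belong to the substrate-like inhibitors of its dehydrogenase domain. Many tumour lines hold some of these genes on without added interferon.

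The promoters below are shown because these genes moved in at least 1 treatment, and because they differ in whether they hold the letters searched for as the response element. Each is the 180 bases just before the first listed RefSeq start on GRCh38.p14, written 5′ to 3′ on the strand of the gene. Capitals mark GAAA, 2 bases of any kind, GAAA on either strand, which is the core of the interferon-stimulated response element, and TTCNNNGAA, which is the gamma activated sequence. The windows are chr10:89392443-89392622 (plus strand) for IFIT1, chr10:89327817-89327996 (plus) for IFIT3, chr13:42992242-42992421 (minus) for EPSTI1, chr1:89065209-89065388 (minus) for GBP1, chr12:112906782-112906961 (plus) for OAS1, chr3:187368205-187368384 (plus) for RTP4, chr15:88638836-88639015 (plus) for ISG20, chr19:17405631-17405810 (minus) for BST2 and chr7:93148386-93148565 (minus) for SAMD9L.
IFIT1: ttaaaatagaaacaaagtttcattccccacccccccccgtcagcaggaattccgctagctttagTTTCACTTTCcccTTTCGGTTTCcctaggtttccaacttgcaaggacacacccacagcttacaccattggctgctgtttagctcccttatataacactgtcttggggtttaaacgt
IFIT3: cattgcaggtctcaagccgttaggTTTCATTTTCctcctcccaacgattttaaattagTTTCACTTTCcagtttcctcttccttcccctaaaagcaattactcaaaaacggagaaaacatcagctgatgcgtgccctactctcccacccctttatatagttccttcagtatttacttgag
EPSTI1: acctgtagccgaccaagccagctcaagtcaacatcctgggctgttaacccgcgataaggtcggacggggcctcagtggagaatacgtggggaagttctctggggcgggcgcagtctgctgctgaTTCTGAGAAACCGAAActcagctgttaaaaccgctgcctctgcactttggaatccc
GBP1: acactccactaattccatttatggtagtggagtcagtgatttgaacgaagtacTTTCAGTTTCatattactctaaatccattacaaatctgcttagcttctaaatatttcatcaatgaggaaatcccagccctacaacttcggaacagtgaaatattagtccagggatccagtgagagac
OAS1: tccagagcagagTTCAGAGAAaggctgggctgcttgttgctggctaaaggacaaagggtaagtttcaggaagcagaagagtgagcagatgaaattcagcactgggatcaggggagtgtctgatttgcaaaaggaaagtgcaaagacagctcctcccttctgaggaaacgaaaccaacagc
RTP4: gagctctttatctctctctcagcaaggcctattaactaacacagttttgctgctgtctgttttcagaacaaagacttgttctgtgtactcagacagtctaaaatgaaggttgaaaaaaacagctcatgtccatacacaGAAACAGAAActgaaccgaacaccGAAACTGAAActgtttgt
ISG20: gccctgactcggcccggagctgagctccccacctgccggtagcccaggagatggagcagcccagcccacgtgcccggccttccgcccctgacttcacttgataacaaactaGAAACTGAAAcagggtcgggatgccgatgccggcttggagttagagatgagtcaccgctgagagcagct
BST2: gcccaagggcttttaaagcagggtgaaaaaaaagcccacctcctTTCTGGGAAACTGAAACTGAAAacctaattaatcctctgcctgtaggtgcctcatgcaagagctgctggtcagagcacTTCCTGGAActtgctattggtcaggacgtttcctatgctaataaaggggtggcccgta
SAMD9L: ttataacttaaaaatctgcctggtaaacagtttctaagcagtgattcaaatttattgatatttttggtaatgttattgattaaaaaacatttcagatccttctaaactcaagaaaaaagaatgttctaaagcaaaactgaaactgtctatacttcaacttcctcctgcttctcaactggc
IFIT1, IFIT3, RTP4 and BST2 each hold 2 matches to the response element, which overlap each other in BST2. EPSTI1, GBP1 and ISG20 each hold 1 match. In EPSTI1 and BST2 a gamma activated sequence runs into the response element, and the only match in OAS1 is to the gamma activated sequence. The OAS1 window also holds GAAA, 1 base, GAAA near its end, a spacing that was not searched. SAMD9L holds neither run of letters in this window.

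RefSeq promoter windows of 250 bases before to 50 bases after the start were found for 33 of the 41 genes. A match to the response element was present in 21 of the 33 (63.6%) and in 996 of 27305 genes with a promoter entry (3.65%). The gamma activated sequence was present in 9 of the 33 (27.3%) and in 2152 of the 27305 (7.88%). Of the 13 genes that passed both thresholds described below, 12 had a promoter entry. A match to the response element was found in 9 of these 12 windows and not in those of OAS1, SAMD9L and XAF1. A match is a run of letters and no evidence of binding. A window without a match can hold the element in another spelling, as other spacings were not searched. OAS2, MX2, IRF7, IFIT2, USP18, OASL, IFITM2 and TRIM22 had no entry.

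The arrays had 64.9 to 81.0% of 43376 gene spots well above background per channel, and 0 saturated spots. The targeted gene, CTBP2, was lower on 5 of 5 shCtBP2 arrays, with log2 ratios from -0.59 to -0.29 (mean -0.41 ± 0.11 SD, n = 5, adjusted p = 0.0602), which did not pass the test. CTBP2 was higher with HIPP (mean 0.57 ± 0.36, adjusted p = 0.0026) and had a mean of 0.17 ± 0.35 with P4 (adjusted p = 0.345). The 15 arrays lay on 4 slides. P4 replicates 1 to 4 filled slide 1, P4 replicate 5 lay with HIPP replicates 1 to 3 on slide 2, HIPP replicates 4 and 5 with shCtBP2 replicates 1 and 2 on slide 3, and shCtBP2 replicates 3 to 5 on slide 4. The 8 identity markers of MDA-MB-231 (VIM, CD44, CAV1, EGFR, AXL, MSN, ANXA1, LGALS1) were well above background in both channels of all arrays. Several changed level, with CAV1 at 23.8% of control with HIPP and 38.3% with P4, AXL at 48.2% and 59.3%, and CD44 at 263% with HIPP. Of the luminal and epithelial markers, 7 of 10 were well above background on all arrays too, while PGR and CDH1 were on none. Of 9 markers listed for blood cells, which include cells rich in interferon-stimulated transcripts, 2 to 6 were well above background per channel. CD3D, MS4A1 and NCAM1 were on none, and PTPRC was on 1 control channel. CD14 and CD68 were on all arrays in both channels, and whether the cancer cells themselves make them was not tested. The summed blood marker signal was 5933 to 10313 in HIPP-treated channels and 1941 to 2583 in their controls, 2089 to 3854 and 1153 to 1696 for P4, and 1331 to 1670 and 910 to 1378 for shCtBP2. CD68 alone had a log2 ratio of 2.01 ± 0.26 (SD, n = 5, adjusted p = 4.91e-08) with HIPP, where the other 8 markers did not pass and the list median was 0.21. CD68 was also higher with P4 (1.12 ± 0.41, adjusted p = 4.78e-05) and shCtBP2 (0.48 ± 0.24, adjusted p = 0.0324), and with P4 so was MS4A1 (0.60 ± 0.59, adjusted p = 0.0247), on signals not well above background. The part of other cells in the results was not tested, and in bulk RNA fewer cells that express a gene cannot be told apart from less RNA per cell.

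Ratios below are log2 of treated over control signal, averaged over the probes of a gene, with the SD over arrays. A gene was tested in a treatment if it was measured on at least 3 of 5 arrays and was not among the 11% of genes with the smallest interquartile range over the 10 channel signals. This filter favours genes that differ between channels, so counts over the tested genes describe them only. A gene passed the adjusted threshold with a Benjamini-Hochberg adjusted p under 0.05 in limma, and passed both thresholds with a fold change over 1.5 (shCtBP2), 2.5 (HIPP) or 1.8 (P4) as well.

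Interferon-stimulated genes moved in both directions in each treatment, and with HIPP and P4 more of those that passed the test were lower than higher. With shCtBP2 the balance turned with the processing, to 3 higher and 1 lower at the adjusted threshold in the methods' t-test. With shCtBP2, 37 of the 41 were tested, 3 were higher and 5 lower past both thresholds, against 3.34% and 3.22% of all genes tested. With HIPP, 33 were tested, 0 were higher and 4 lower past both thresholds, against 3.43% and 3.61% of all genes tested. With P4, 32 were tested, 2 were higher and 4 lower past both thresholds, against 4.29% and 4.17%. At the adjusted threshold alone, shCtBP2 had 5 higher and 6 lower (6.52% and 6.87% of all genes tested), HIPP had 6 higher and 16 lower (24.8% and 23.9%), and P4 had 4 higher and 8 lower (17% and 14.8%). HIPP thus had 6 of 33 higher, and 16 of 33 lower against a background of 23.9% lower. The median log2 ratio of the 41 genes was -0.16 with shCtBP2, -0.24 with HIPP and -0.13 with P4, where the median over all genes tested was 0.04, 0.08 and 0.11. Over the tested members alone it was -0.16, -0.27 and -0.16. The mean ratio was below 0 for 24, 26 and 25 of the 41 genes (58.5%, 63.4% and 61.0%), against 45.7%, 45.4% and 41.4% of all genes tested. In each treatment the genes thus spread around a median slightly below that of all genes in these processed signals. From mean signals without correction this did not hold with P4 (-0.252 against -0.258 for all genes).

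The counts depended on single arrays in all 3 treatments. With HIPP, leaving out 1 array gave 11 to 17 genes lower at the adjusted threshold in place of 16. Past both thresholds HIPP kept 0 higher and 4 lower throughout. Without shCtBP2 replicate 2, 4 or 5, 3 genes were lower past both thresholds and 3 at the adjusted threshold in place of 6, and without replicate 4 or 5 the genes higher at the adjusted threshold were 3 in place of 5. The median of the 41 genes was -0.09 without shCtBP2 replicate 2 and -0.07 without P4 replicate 1. Without P4 replicate 2 or 4, 1 gene was higher past both thresholds in place of 2.

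**Figure D1:**
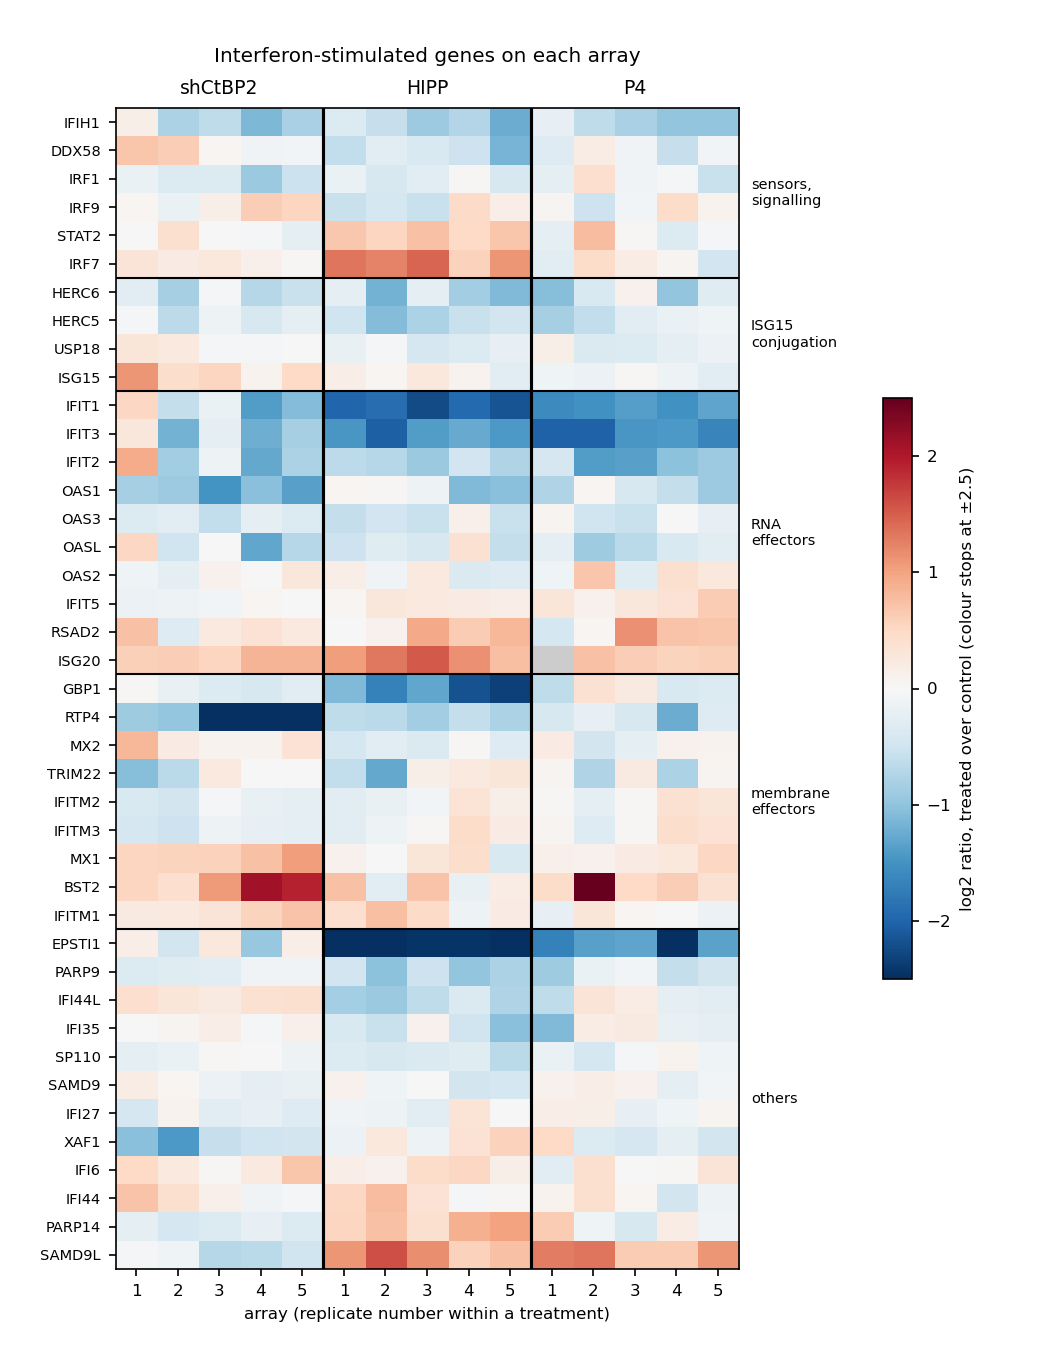
Log2 ratio (treated over control) of each of the 41 interferon-stimulated genes (rows, by role) on each of the 15 arrays (columns, by treatment), with colour from low to high ratios that stops at 2.5 in either direction. IFIT1, IFIT3 and EPSTI1 are low on all 10 arrays of HIPP and P4, ISG20 is high on all 14 arrays that measured it, and shCtBP2 replicate 1 has higher ratios than the other shCtBP2 arrays in IFIT1, IFIT2 and IFIT3.

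IFIT1, IFIT2 and IFIT3, whose proteins bind foreign RNA and block its translation, were lower with both inhibitors. IFIT1, read by a probe at chr10:91153418-91153477 (hg17), had log2 ratios of -1.98, -1.90, -2.23, -1.94 and -2.16 on the 5 HIPP arrays (mean -2.04 ± 0.15, adjusted p = 6.95e-07), which is 24.3% of control. With P4 it had -1.58, -1.51, -1.37, -1.51 and -1.33 (mean -1.46 ± 0.11, adjusted p = 7.37e-05), 36.3% of control. With shCtBP2 it had 0.51, -0.59, -0.17, -1.40 and -1.07 (mean -0.54 ± 0.75, adjusted p = 0.0741), which did not pass. All 10 inhibitor arrays lie below 4 of the 5 shCtBP2 arrays, and only shCtBP2 replicate 4 reaches into the P4 range. In signal units the treated HIPP channels ran from 3549 to 4963 (median 4058) and their controls from 13986 to 23335 (median 16948), with no overlap. IFIT1 was called in HIPP and P4 under each of 27 alternative analyses.

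IFIT3 works in complex with IFIT1 and steadies it. Its probe lies at chr10:91089342-91089401 (hg17). IFIT3 had log2 ratios of -1.45, -2.03, -1.40, -1.27 and -1.44 with HIPP (mean -1.52 ± 0.30, adjusted p = 1.27e-05, 34.9% of control). With P4 it had -2.03, -2.02, -1.45, -1.43 and -1.65 (mean -1.72 ± 0.29, adjusted p = 1.82e-05, 30.4% of control). Every inhibitor array was at or below -1.27. With shCtBP2 it had 0.28, -1.19, -0.22, -1.23 and -0.83 (mean -0.64 ± 0.65, adjusted p = 0.0383). Replicate 1 was above 0 and the other 4 were below, and IFIT3 was called in shCtBP2 under 18 of 27 alternatives. That call was lost without replicate 2 (adjusted p = 0.163), 4 (adjusted p = 0.16) or 5 (adjusted p = 0.114). It was also lost in the methods' t-test (adjusted p = 0.386) and with the treatment fitted alone in limma (adjusted p = 0.112).

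IFIT2, read by 2 probes at chr10:91058377-91058436 and chr10:91056593-91056652 (hg17), is a partner of both. With P4 it had -0.42, -1.40, -1.36, -1.03 and -0.90 (mean -1.02 ± 0.40, adjusted p = 0.00423) and passed both thresholds. With HIPP its mean was -0.71 ± 0.16 (adjusted p = 0.021), which passed the adjusted threshold only, as the fold was under 2.5. Its 2 probes had means of -1.07 and -0.34 with HIPP and of -0.79 and -1.25 with P4, and from the brighter probe alone P4 fell under the fold of 1.8 (adjusted p = 0.00882). With shCtBP2 it had 0.93, -0.87, -0.13, -1.27 and -0.79 (mean -0.43 ± 0.86, adjusted p = 0.251). The IFIT1, IFIT2 and IFIT3 ratios thus had their highest value on shCtBP2 replicate 1, and without that array IFIT1 (-0.81, adjusted p = 0.00568), IFIT2 (-0.77, adjusted p = 0.0162) and IFIT3 (-0.87, adjusted p = 0.00748) all passed in shCtBP2. Without replicate 2, 4 or 5 instead, the shCtBP2 call of IFIT3 was lost. IFIT5, which lies beside them, was higher with P4 (mean 0.34 ± 0.19, adjusted p = 0.00525) and had a mean of -0.06 ± 0.08 with shCtBP2 (adjusted p = 0.699).

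**Figure D2:**
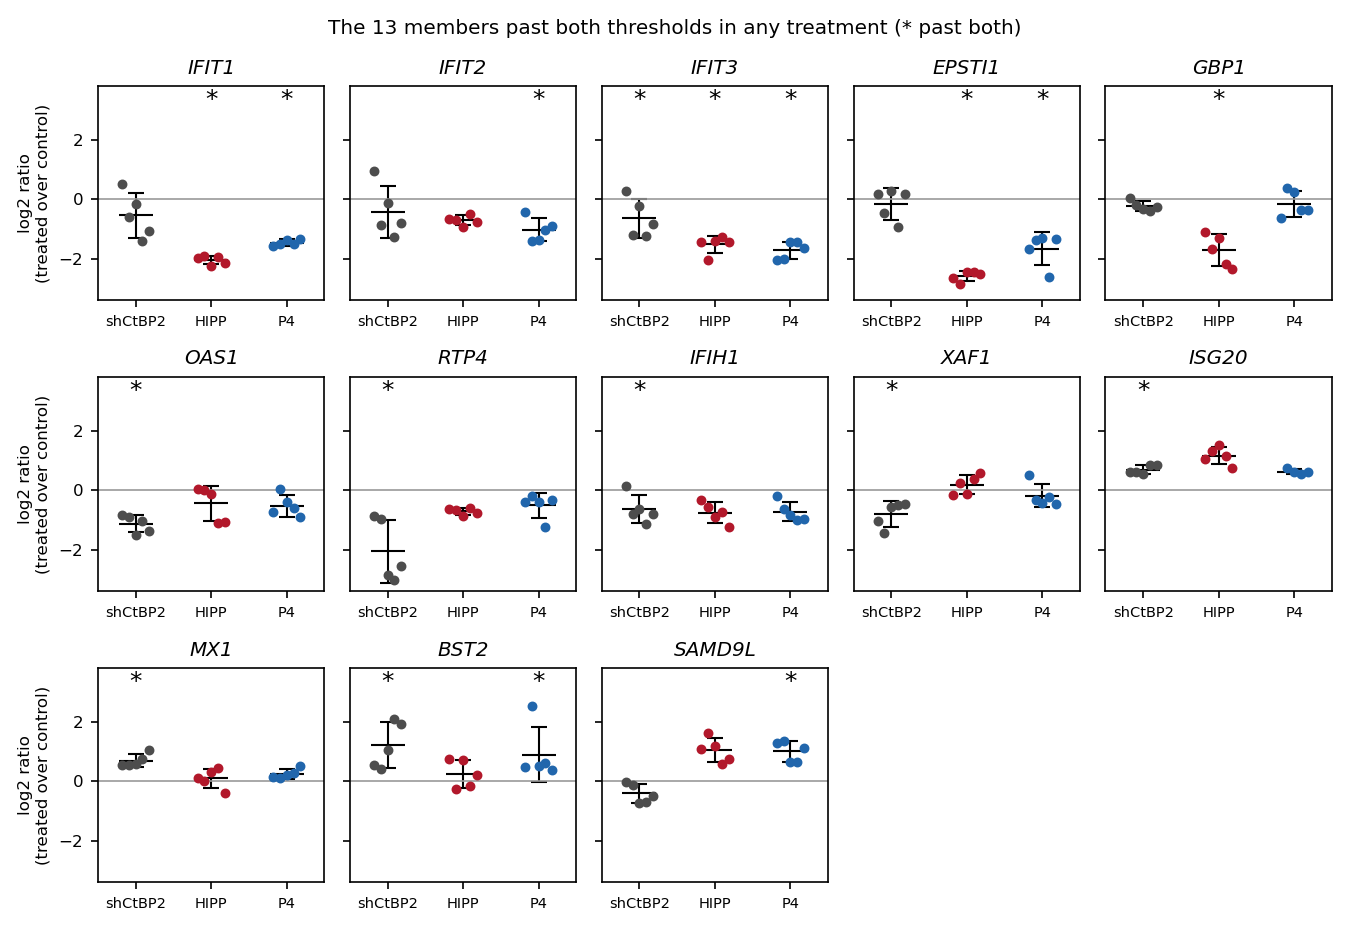
Log2 ratio on each array (points) with the mean and SD (bars, asterisks for calls) for the 13 interferon-stimulated genes that passed both thresholds in at least 1 treatment, in the 3 treatments. The 5 HIPP values of IFIT1 lie between -2.23 and -1.90, while RTP4 with shCtBP2 splits into replicates 1 and 2 at -0.88 and -0.97 and replicates 3 to 5 at -3.02 to -2.56.

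EPSTI1 and GBP1, which interferon gamma also turns on, were lower with HIPP. EPSTI1, whose probe spans an intron (chr13:42398538-42426115, hg17), was a dim gene. Its processed signal had log2 ratios of -2.66, -2.86, -2.45, -2.45 and -2.51 with HIPP (mean -2.59 ± 0.17, adjusted p = 8.32e-08). The treated channel was well above background on 0 of 5 arrays and the control channel on 5 of 5. The size of the drop is therefore only bounded, at least 1.12-fold lower, where the treated mean is set against the lowest signals well above background after normexp correction (adjusted p = 0.0147 in that fit). Only 1 treated value was raised to such a signal. That correction adds 50 to both channels, which by itself makes the ratios of dim signals smaller. With P4, EPSTI1 had -1.69, -1.36, -1.31, -2.61 and -1.34 (mean -1.66 ± 0.55, adjusted p = 2.57e-05), again with 0 of 5 treated and 5 of 5 control channels well above background. After normexp correction its treated signals lay above the lowest signals well above background, so no separate bound arises, and the fitted ratio was 1.20-fold lower (adjusted p = 0.00214). With shCtBP2 its mean was -0.16 ± 0.53 (adjusted p = 0.652).

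GBP1 is a GTPase that coats intracellular pathogens. It was read by 2 probes at chr1:89230810-89230869 and chr1:89230712-89230771 (hg17). With HIPP it had log2 ratios of -1.10, -1.69, -1.29, -2.19 and -2.33 (mean -1.72 ± 0.54, adjusted p = 1.9e-06), 30.4% of control. Both probes fell alike, with means of -1.80 and -1.64. The 2 HIPP arrays of slide 3 (replicates 4 and 5) were lower than the 3 of slide 2. The treated signals of 398 to 914 did not reach the control signals of 1310 to 2238. With P4 its mean was -0.15 ± 0.44 (adjusted p = 0.528), with 2 arrays above 0 and 3 below, and with shCtBP2 it was -0.23 ± 0.16 (adjusted p = 0.427).

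Besides IFIT3, the genes OAS1, RTP4, IFIH1 and XAF1 were lower past both thresholds with shCtBP2. OAS1 makes the oligoadenylates that activate RNase L, and its probe lies at chr12:111817181-111817240 (hg17). Its log2 ratios were -0.83, -0.91, -1.50, -1.04 and -1.36 (mean -1.13 ± 0.29, adjusted p = 0.00115, 45.8% of control), and its signals of 24.4 to 35.5 in treated channels lay below the 52.8 to 76.2 of the controls. With HIPP it had 0.04, 0.02, -0.12, -1.10 and -1.05 (mean -0.44 ± 0.58, adjusted p = 0.0592), so that slide 2 had a mean of -0.02 and slide 3 of -1.08. With P4 its mean was -0.52 ± 0.37 (adjusted p = 0.0435). With the slide as a block the shCtBP2 estimate of OAS1 was -0.33 (adjusted p = 0.304) and was no longer called. That estimate lies above the means of both slides with shCtBP2 arrays, -0.87 on slide 3 and -1.30 on slide 4. The block fit also draws on arrays of other treatments.

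RTP4 helps bring receptors to the cell surface and binds foreign RNA. Its probe lies at chr3:188571957-188572016 (hg17). With shCtBP2 it had log2 ratios of -0.88, -0.97, -2.86, -3.02 and -2.56 (mean -2.06 ± 1.05, adjusted p = 0.000209). The 2 arrays of slide 3 had a mean of -0.92 and the 3 of slide 4 a mean of -2.81. The treated channel was well above background on 2 of 5 arrays and the control on 5 of 5, with median processed signals of 2.78 and 19.2, and the mean with normexp correction was -0.28 (adjusted p = 0.00382). In the methods' t-test RTP4 was not called with shCtBP2 (adjusted p = 0.159). With HIPP its mean was -0.71 ± 0.11 (adjusted p = 0.0418) and with P4 -0.51 ± 0.41 (adjusted p = 0.152).

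IFIH1 (MDA5, a sensor of long double-stranded RNA, probe at chr2:162954313-162954372, hg17) was lower at the adjusted threshold in all 3 treatments. With shCtBP2 it had 0.14, -0.79, -0.64, -1.12 and -0.80 (mean -0.64 ± 0.47, adjusted p = 0.0199). With HIPP it had -0.34, -0.57, -0.90, -0.73 and -1.25 (mean -0.76 ± 0.34, adjusted p = 0.00171), and with P4 -0.20, -0.64, -0.82, -0.99 and -0.98 (mean -0.72 ± 0.33, adjusted p = 0.00462). Of the 15 arrays, 14 were below 0. IFIH1 was lost in shCtBP2 without replicate 2, 3, 4 or 5 (adjusted p from 0.0522 to 0.0964), and it was called there under 18 of 27 alternatives. XAF1, which counters the apoptosis inhibitor XIAP, had -1.05, -1.43, -0.58, -0.49 and -0.47 with shCtBP2 (mean -0.80 ± 0.42, adjusted p = 0.00552). It was well above background on only 2 of 5 arrays in either channel, through only 1 probe, and with normexp correction its mean was -0.06 (adjusted p = 0.309). The call was also lost from the brightest probe in limma (-0.39, adjusted p = 0.307) and in the methods' t-test (adjusted p = 0.502).

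Among the higher genes, ISG20, an exonuclease that degrades RNA, passed the adjusted threshold in all 3 treatments. Of the 24 interferon-stimulated genes tested in all 3, no other did so upward, and the like share of all genes is not given here. The ISG20 probe lies at chr15:86999788-86999847 (hg17). ISG20 had log2 ratios of 0.60, 0.62, 0.54, 0.84 and 0.85 with shCtBP2 (mean 0.69 ± 0.15, adjusted p = 0.000668). With HIPP it had 1.05, 1.31, 1.53, 1.14 and 0.75 (mean 1.15 ± 0.29, adjusted p = 6.94e-07), a fold of 2.23 that stayed under the HIPP threshold of 2.5. With P4 the 4 arrays that measured it had 0.73, 0.62, 0.56 and 0.60 (mean 0.63 ± 0.07, adjusted p = 0.0011). Treated and control signals did not overlap in any treatment, with medians of 21348 and 9099 for HIPP.

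MX1 and BST2 were higher with shCtBP2. MX1, a GTPase that traps viral nucleocapsids (probe at chr21:41752884-41752943, hg17), had 0.54, 0.56, 0.58, 0.74 and 1.04 (mean 0.69 ± 0.21, adjusted p = 0.0012), and every treated signal was above every control signal. With HIPP its mean was 0.09 ± 0.31, where it was not tested, and with P4 0.24 ± 0.16 (adjusted p = 0.109). BST2 (tetherin, which holds budding viruses at the membrane, probe at chr19:17375054-17375113, hg17) had 0.54, 0.41, 1.06, 2.09 and 1.93 (mean 1.21 ± 0.77, adjusted p = 0.0175). It was well above background on 3 of 5 treated and 0 of 5 control channels, so its size is uncertain, and with normexp correction and loess the mean was 0.17 (adjusted p = 0.0249). It was lost without shCtBP2 replicate 4 (adjusted p = 0.0864) or 5 (adjusted p = 0.0773). With P4 it had 0.46, 2.51, 0.50, 0.62 and 0.38 (mean 0.89 ± 0.91, adjusted p = 0.037), and without P4 replicate 2 the mean was 0.49 (adjusted p = 0.154). Only 1 of 5 treated and 2 of 5 control channels of P4 were well above background. The P4 call was also lost without P4 replicate 4 (adjusted p = 0.0635) and with the replicate number as a block (adjusted p = 0.0642). From mean signals without correction BST2 had the other sign, -0.13 with shCtBP2 and -0.16 with P4, and was not tested.

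SAMD9L, a growth-restraining relative of SAMD9 (probe at chr7:92404870-92404929, hg17), was higher with both inhibitors. With HIPP it had log2 ratios of 1.09, 1.62, 1.17, 0.58 and 0.74 (mean 1.04 ± 0.40, adjusted p = 6.83e-05), past the adjusted threshold. With P4 it had 1.28, 1.34, 0.64, 0.64 and 1.10 (mean 1.00 ± 0.34, adjusted p = 0.000303), past both thresholds. All 10 inhibitor arrays were above 0. With shCtBP2 it had -0.03, -0.11, -0.72, -0.68 and -0.50 (mean -0.41 ± 0.32, adjusted p = 0.0983).

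IRF7, the factor that drives a second wave of interferon genes, rose with HIPP (1.33, 1.24, 1.45, 0.58 and 1.11, mean 1.14 ± 0.34, adjusted p = 6.73e-06). Its 2 probes, at chr11:604499-604820 and chr11:602643-602702 (hg17), gave means of 0.82 and 1.46. It was not tested in shCtBP2 (mean 0.19 ± 0.11) or P4 (mean -0.01 ± 0.37). STAT2, which joins IRF9 on the response element, was higher with HIPP (mean 0.62 ± 0.10, adjusted p = 0.00115). IRF9 passed in no treatment, with means of 0.24 ± 0.33, -0.18 ± 0.48 and 0.00 ± 0.36. IRF1 was lower with shCtBP2 (mean -0.47 ± 0.29, adjusted p = 0.0285). DDX58 (RIG-I, a sensor of short double-stranded RNA) was lower with HIPP (mean -0.59 ± 0.35, adjusted p = 0.00492).

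Of the ISG15 conjugation genes, ISG15, a ubiquitin-like modifier, was higher with shCtBP2 (mean 0.53 ± 0.37, adjusted p = 0.0084) and had a mean of 0.06 ± 0.20 with HIPP (adjusted p = 0.698). HERC5, the ligase that attaches it, was lower with HIPP (mean -0.68 ± 0.26, adjusted p = 0.00044) and with P4 (mean -0.40 ± 0.31, adjusted p = 0.0266). HERC6 was lower with HIPP (mean -0.73 ± 0.46, adjusted p = 0.00466) and P4 (mean -0.52 ± 0.50, adjusted p = 0.044). USP18, which removes ISG15 and damps the receptor, was lower with HIPP (mean -0.24 ± 0.14, adjusted p = 0.0487), where its 2 probes had means of -0.54 and 0.07, so that 1 probe carried the call. ISG15 was not tested with P4, and the HERC5 difference between HIPP and shCtBP2 was -0.39 ± 0.18 SE (adjusted p = 0.132).

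The other genes lower with HIPP at the adjusted threshold were PARP9 (-0.76 ± 0.25, adjusted p = 9.46e-05), IFI44L (-0.70 ± 0.22, adjusted p = 0.000227), IFI35 (-0.48 ± 0.41, adjusted p = 0.0296), OAS3 (-0.41 ± 0.30, adjusted p = 0.00972) and SP110 (-0.42 ± 0.15, adjusted p = 0.00117). IFITM1, which blocks membrane fusion of viruses, was higher with shCtBP2 (0.41 ± 0.22, adjusted p = 0.0339) and HIPP (0.34 ± 0.33, adjusted p = 0.0274). PARP14 was higher with HIPP (mean 0.72 ± 0.25, adjusted p = 0.000263), but its 4 probes ran from -0.80 to 1.88 and so disagreed in direction. Probes also disagreed for SAMD9 with HIPP, for PARP14 with P4 and for XAF1 with HIPP, so the gene means there average opposite values.

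Of the 41 genes, 12 passed the adjusted threshold in no treatment, and some of these were not tested in every treatment. The like share of all genes is not given here, so the count is no trait of the group. RSAD2 and TRIM22 were dim. TRIM22 was well above background on 0 arrays, and RSAD2 on 1 shCtBP2 array alone in each channel. IFI27, read by 11 spots, had an SD of 0.07 to 0.15 between spots of an array and of 0.16 to 0.23 between arrays of a treatment. Genes not tested in a treatment were IFITM2, IRF7, PARP9 and USP18 with shCtBP2, IFIT5, IFI6, IFI44, IFITM2, IFITM3, MX1, OASL and IRF1 with HIPP, and IFI27, IFITM1, ISG15, STAT2, IRF1, IRF7, SAMD9, PARP9 and SP110 with P4. Their mean log2 ratios ran from -0.26 to 0.19, from -0.29 to 0.33 and from -0.44 to 0.03. The IFITM genes are near copies of each other, and cross-hybridization between their probes was not tested.

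**Figure D3:**
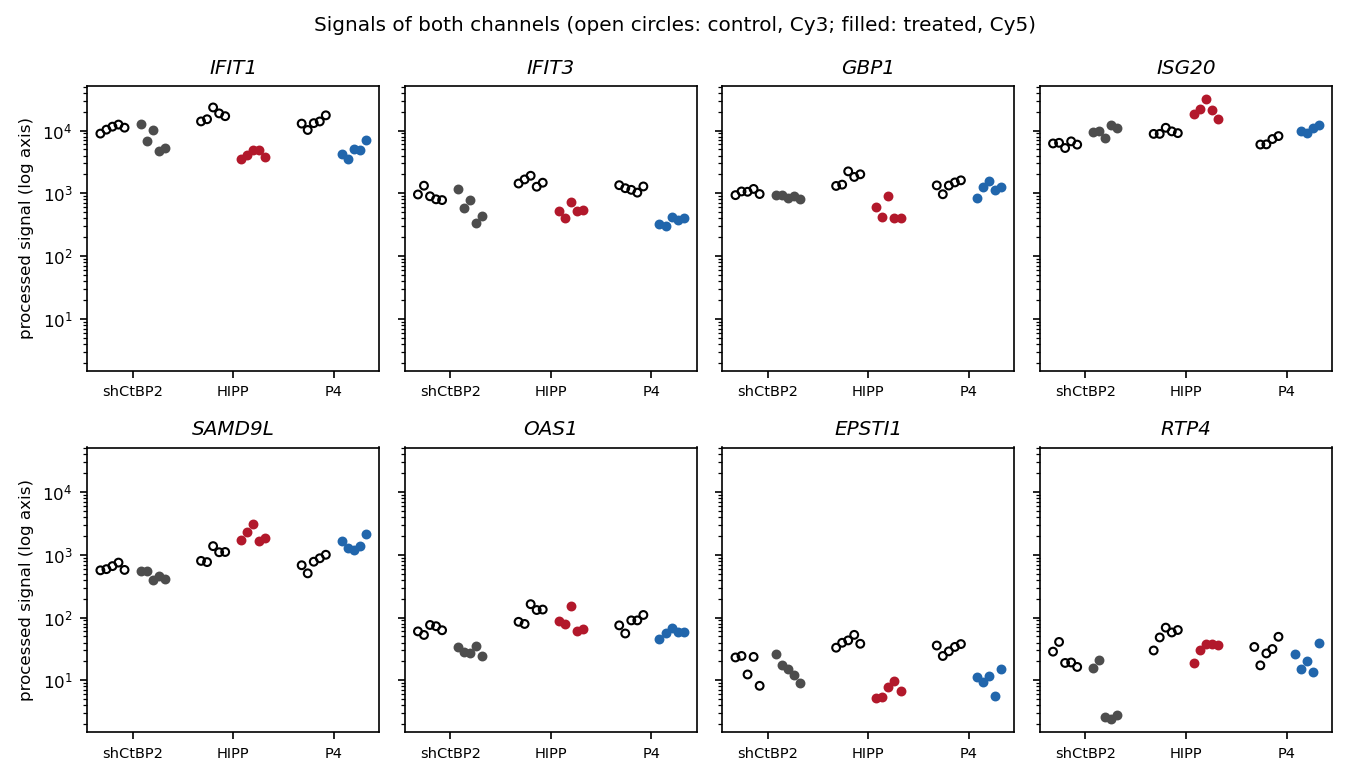
Processed signal (log axis, arbitrary units) of treated and control channels on each array for 8 of the genes that passed both thresholds, with filled points for treated (Cy5) and open points for control (Cy3). IFIT1 (controls of HIPP from 13986 to 23335) and ISG20 are bright in both channels, whereas EPSTI1 and RTP4 are dim, with treated RTP4 signals of shCtBP2 replicates 3 to 5 apart from replicates 1 and 2.

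Whether a gene responded differently to an inhibitor than to the knockdown was tested as the difference of the log2 ratios, in which a dye effect shared by the arrays cancels. For HIPP minus shCtBP2, 30 genes could be tested and 14 differed, 6 higher and 8 lower, against 12.2% and 14.1% of all genes tested. For P4 minus shCtBP2, 30 could be tested and 6 differed, 3 higher and 3 lower, against 6.06% and 5.89%. Both differences use the same shCtBP2 arrays and are given side by side. The processed signals of EPSTI1 gave -2.43 ± 0.27 SE (adjusted p = 1.33e-05) with HIPP and -1.50 ± 0.27 (adjusted p = 0.00232) with P4. No treated EPSTI1 signal of either inhibitor was well above background, so these sizes are uncertain, and with normexp correction and loess the HIPP difference was -0.19 (adjusted p = 0.0997). IFIT1 was -1.50 ± 0.27 (adjusted p = 0.000741) with HIPP and -0.92 ± 0.27 (adjusted p = 0.0383) with P4. IFIT3 was -0.88 ± 0.27 (adjusted p = 0.025) and -1.08 ± 0.27 (adjusted p = 0.0175). The P4 difference of IFIT1 was lost under 10 of 25 alternatives, among them without shCtBP2 replicate 1, 2 or 3 and without any 1 P4 array (adjusted p from 0.054 to 0.0902). The HIPP difference of IFIT3 was kept under 19 of 25 and lost, among others, without shCtBP2 replicate 1 (adjusted p = 0.0592) or 3 (adjusted p = 0.0646) and without HIPP replicate 2 (adjusted p = 0.0675), while that of IFIT1 was kept under all 25.

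SAMD9L was higher by 1.45 ± 0.22 (adjusted p = 0.000198) with HIPP and by 1.41 ± 0.22 (adjusted p = 0.000837) with P4 than with shCtBP2. RTP4 was higher by 1.35 ± 0.38 (adjusted p = 0.0166) and by 1.54 ± 0.38 (adjusted p = 0.0168), on treated shCtBP2 signals of which only 2 of 5 were well above background. Both RTP4 differences were lost with normexp correction and loess (0.15 and 0.12) and with slide as a block (0.24 and 0.64). GBP1 (-1.49 ± 0.25, adjusted p = 0.000458), IFI44L (-1.05 ± 0.17, adjusted p = 0.000338), DDX58 (-0.83 ± 0.21, adjusted p = 0.00957), MX2 (-0.59 ± 0.17, adjusted p = 0.0204) and ISG15 (-0.47 ± 0.17, adjusted p = 0.0495) were lower with HIPP. For MX2, 1 probe carried the difference (0.58 with shCtBP2 and -0.52 with HIPP), while the other had 0.05 and -0.03. The ISG15 difference passed under 8 of 25 alternatives, and did not without shCtBP2 replicate 1, 2, 3 or 5, HIPP replicate 2 or any 1 P4 array (adjusted p from 0.0541 to 0.122). Without HIPP replicate 1, 3, 4 or 5 it was not tested. PARP14 (1.02 ± 0.18, adjusted p = 0.000577), STAT2 (0.60 ± 0.19, adjusted p = 0.0266) and ISG20 (0.46 ± 0.14, adjusted p = 0.0292) were higher with HIPP, although the differences of ISG20 (-0.20) and RTP4 (-0.033) had the other sign from mean signals without correction. IFIT5 (0.40 ± 0.11, adjusted p = 0.0336) was higher with P4. With the replicate number as a block, IFITM3 also differed between P4 and shCtBP2 (0.41, adjusted p = 0.0415), and OAS1 (0.68, adjusted p = 0.0298) and IRF9 (-0.42, adjusted p = 0.0367) between HIPP and shCtBP2. The HIPP difference of STAT2 and the P4 difference of IFIT5 each passed under 16 of 25 alternatives, and the HIPP difference of ISG20 under 18. Leaving out shCtBP2 replicate 1 or 3, among other arrays, ended each of these 3 calls. The processed signals of XAF1 also gave a difference with HIPP (0.99 ± 0.23, adjusted p = 0.00562), on shCtBP2 signals well above background on 2 of 5 arrays and with probes that disagreed in direction, and it was 0.12 (adjusted p = 0.0835) with normexp correction and loess. With that correction PARP14 (0.32) was not tested. With slide as a block the HIPP differences of MX2 (-0.67, adjusted p = 0.0937) and SAMD9L (0.73, adjusted p = 0.0779) were lost. So were those of IFIT3 (-0.90, adjusted p = 0.177), ISG20 (0.33, adjusted p = 0.288) and STAT2 (0.39, adjusted p = 0.368). MX2 was also lost without shCtBP2 replicate 1 (adjusted p = 0.0545). GBP1 without shCtBP2 replicate 3 or 4, SAMD9L without shCtBP2 replicate 3 and MX2 without HIPP replicate 4 were not tested.

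Slide 3 holds HIPP and shCtBP2 arrays together, and within it, with 2 arrays each and no test, the difference of HIPP was -2.18 for GBP1, -2.01 for IFIT1 and 1.27 for PARP14. RTP4 was 0.24 there in place of 1.35. These genes were chosen in a fit that holds the same arrays, so the signs are no separate check. P4 shares no slide with shCtBP2. With slide as a block, which links them only through HIPP arrays, 0 P4 differences passed in limma. Without shCtBP2 replicate 3, 8 differences with HIPP and 3 with P4 passed.

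**Figure D4:**
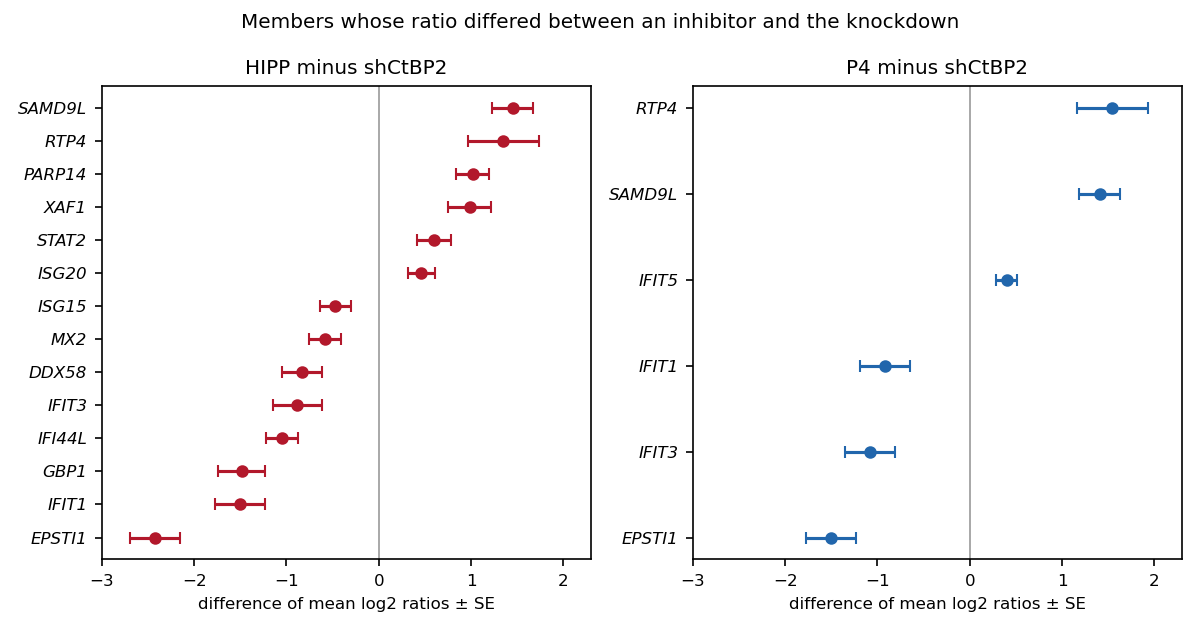
Difference in log2 ratio between an inhibitor and shCtBP2 (horizontal axis) with its SE for the interferon-stimulated genes that passed the adjusted threshold, 14 for HIPP (left) and 6 for P4 (right). EPSTI1, IFIT1 and IFIT3 lie to the left and SAMD9L and RTP4 to the right in both panels.

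HIPP carries an oxime and P4 a hydrazone at the same carbon, and their values stand side by side without a comparison, since the concentrations on the arrays are not known here. For HIPP and P4, IFIT1 was -2.04 and -1.46, IFIT3 -1.52 and -1.72, IFIT2 -0.71 and -1.02, SAMD9L 1.04 and 1.00, ISG20 1.15 and 0.63, and GBP1 -1.72 and -0.15.

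The upstream pathway was followed through 42 genes (ligands, receptors, kinases, sensors and brakes), of which 40 were on the array and 31, 29 and 31 were tested with shCtBP2, HIPP and P4. Past both thresholds, 0 were higher and 1 lower with shCtBP2, 1 higher and 1 lower with HIPP, and 0 with P4. At the adjusted threshold, 1 was higher and 3 lower with shCtBP2, 9 and 7 with HIPP, and 2 and 5 with P4, beside the 6.52% and 6.87%, 24.8% and 23.9%, and 17% and 14.8% of all genes. The median log2 ratio of the list was -0.09, 0.13 and 0.03. STING1, the adaptor for cytosolic DNA, was higher with HIPP (mean 1.56 ± 0.45, adjusted p = 3.26e-06), as was CGAS, which makes its ligand (mean 1.13 ± 0.33, adjusted p = 4.15e-05). IKBKE, a kinase that activates IRF3, was lower with HIPP (adjusted p = 4.76e-07), with 0 of 5 treated channels well above background, and was 1.13-fold lower (adjusted p = 0.0046) with normexp correction, where no separate bound arises either.

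TLR3, a receptor for double-stranded RNA, was lower with shCtBP2 (mean -0.79 ± 0.11, adjusted p = 7.9e-05) and higher with P4 (mean 0.54 ± 0.20, adjusted p = 0.000552). IFNGR1, a chain of the interferon gamma receptor, was higher in all 3 treatments (0.28 ± 0.07, 0.86 ± 0.16 and 0.60 ± 0.11), whereas its partner chain IFNGR2 was lower with HIPP (-0.78 ± 0.36, adjusted p = 0.00197). Of the receptor for type I interferon, IFNAR1 was higher with HIPP (0.37 ± 0.19, adjusted p = 0.0175), and IFNAR2 was lower with HIPP (-0.95 ± 0.64, adjusted p = 0.00255) and P4 (-0.79 ± 0.36, adjusted p = 0.0147), with 3 of 5 treated channels well above background in each. MYD88, an adaptor of Toll-like receptors, was lower in all 3 (-0.36 ± 0.24, -0.60 ± 0.28 and -0.52 ± 0.12). Of 24 antigen presentation genes, which interferon gamma raises, 21, 19 and 16 were tested. Of these, 3 were higher and 1 lower at the adjusted threshold with shCtBP2, 6 and 4 with HIPP, and 1 and 2 with P4, with list medians of 0.07, 0.15 and -0.04. The same shares of all genes apply. HLA-DMB passed both thresholds, with shCtBP2 (mean 0.80 ± 0.33, adjusted p = 0.0192), where 4 of 5 treated and 1 of 5 control channels were well above background. With HIPP, B2M (0.78 ± 0.21, adjusted p = 2.02e-05) and HLA-E (0.64 ± 0.21, adjusted p = 0.00018) were higher while the immunoproteasome genes PSMB8 (-0.83 ± 0.32, adjusted p = 9.31e-05) and PSMB9 (-0.89 ± 0.66, adjusted p = 0.00768) were lower. The third immunoproteasome gene, PSMB10, had a mean of -0.07 ± 0.14 with HIPP and was not tested. HLA genes share sequence, and cross-hybridization was not tested.

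**Figure D5:**
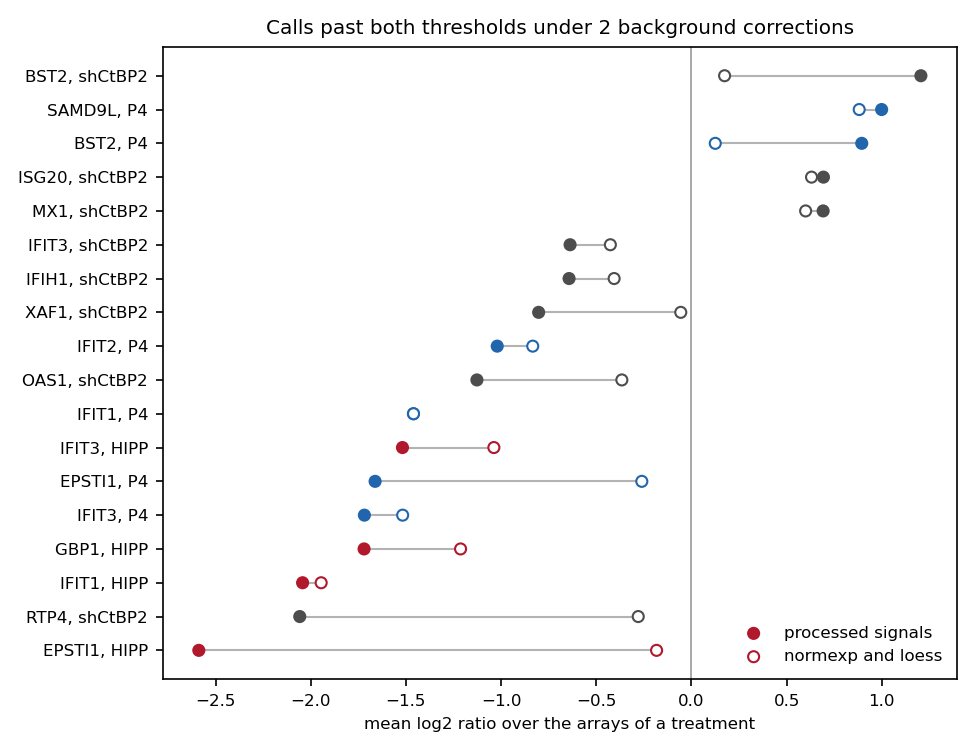
Mean log2 ratio of the 18 calls past both thresholds from the processed signals (filled) and after normexp correction with loess (open), with shCtBP2 in grey, HIPP in red and P4 in blue. IFIT1 stays near -1.46 with P4, where the points coincide, and moves from -2.04 to -1.95 with HIPP, whereas EPSTI1 with HIPP moves from -2.59 to -0.18 and RTP4 with shCtBP2 from -2.06 to -0.28.

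Normexp correction with loess, which changes background correction and normalization together, moved the dim genes most. It adds 50 to both channels, which by itself makes the ratios of dim signals smaller. A dim gene's lost call therefore cannot show whether that call was sound. Of 18 calls past both thresholds, 6 were kept, and those lost include OAS1 (-0.37), EPSTI1 (-0.18 with HIPP and -0.26 with P4) and RTP4 (-0.28). IFIT3 with HIPP (-1.04) and GBP1 with HIPP (-1.21) kept adjusted p under the threshold and fell under the fold of 2.5. With the slide as a block, 9 of the 18 calls were kept. Those lost with shCtBP2 were IFIT3 (-0.69, adjusted p = 0.232), BST2 (1.13, adjusted p = 0.157) and MX1 (0.58, adjusted p = 0.0856), whose ratios moved little, and OAS1 (-0.33, adjusted p = 0.304) and IFIH1 (-0.19, adjusted p = 0.679), whose ratios shrank. The block estimates of OAS1 and IFIH1 lie above the means of both slides with shCtBP2 arrays (-0.87 and -1.30 for OAS1, -0.32 and -0.86 for IFIH1). They draw on arrays of other treatments, as slides and treatments overlap little. Those lost with P4 were BST2 (0.65, adjusted p = 0.444), EPSTI1 (-1.36, adjusted p = 0.059), IFIT2 (-1.05, adjusted p = 0.145) and SAMD9L (0.61, adjusted p = 0.122).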

How the data were processed

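Gene expression was measured on 15 Agilent whole human genome arrays (2 colours, 4 slides), 5 each for shCtBP2, HIPP and P4, grouped by the treatment in the labels. Scans were processed by the authors in Agilent Feature Extraction, which subtracts background and normalizes the dyes, and they deposited, per spot, processed signal intensities of the Cy5 and Cy3 channels and a log10 ratio. The deposited value table, also on a log10 ratio scale, equals that ratio and was used to check direction. Probe positions are those of the files (hg17). Array columns tied to no sample numbered 0.

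From the deposited intensities, log2 of Cy5 over Cy3 was taken per spot, spots marked as outliers were dropped (78 to 265 per array), and spots were averaged per probe and probes per gene. All 15 arrays were fitted together with limma 3.58.1 (R 4.3.3), and treatment means were tested against 0 with Benjamini-Hochberg adjustment over the 27582 genes tested per treatment. The interquartile range filter and the fold thresholds (1.5, 2.5 and 1.8) were taken from the study's methods, which allow more missing values and apply the fold before the test, whereas here 3 of 5 arrays were required and the fold was applied after adjustment. The labels call the replicates biological. Each ratio rests on 1 control channel per array, and whether controls shared an extract is not given in the sources used here. The number of arrays limits the precision. In simulated data for HIPP with 22894 genes, 63% of genes changed by 1 on the log2 scale and 98% of those changed by 2 were recovered at the adjusted threshold, with 11 false calls. Bounds for genes not well above background set each array's dim signal no lower than the lowest signal well above background.

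The members, the pathway, antigen presentation and marker lists and the tests were chosen with earlier results of these data known. Named with values were the genes past both thresholds, the 5 highest and 5 lowest past the adjusted threshold per treatment, the 5 largest differences, untested members, members with disagreeing probes, and listed pathway and antigen genes past both thresholds, and CTBP2. 1 gene of the pathway list is not reported here. Other named genes were chosen after their values were seen. Same-numbered shCtBP2 and P4 arrays deviated together in 5 of 5 pairs (correlations 0.14 to 0.34), a hint of pairing from the data and not from the labels. The differences printed are from the fit without the replicate block, and the differences that the block adds are named. Between shCtBP2 and HIPP 4 of 5 pairs did (0.071 to 0.30). Promoters are from RefSeq (GRCh38.p14). Alternatives were normexp correction (offset 50) with loess, median centring, no variability filter, dim genes left out, the brightest probe, slide or replicate number as a block, slide as a random block, each treatment alone, the methods' t-test, the value table, each array left out, and mean signals without correction, which was chosen after seeing the data.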

Additional observations from a re-analysis of the deposited data

Results flagged for a closer look

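Of 123 groups of 5 or 4 arrays checked, 8 had 1 array far from the others, where chance gives about 1 in 20. These were IFIT3 with HIPP, where replicate 2 was at -2.03 and the others from -1.45 to -1.27, EPSTI1 with P4, where replicate 4 was at -2.61, RTP4 with P4, where replicate 4 was at -1.23, and BST2 with P4, where replicate 2 was at 2.51 and the others from 0.38 to 0.62. XAF1 with P4 had replicate 1 at 0.50, OAS3 had shCtBP2 replicate 3 at -0.61 and HIPP replicate 4 at 0.12, and SP110 had HIPP replicate 5 at -0.67.

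The log2 ratio differed between HIPP and shCtBP2, by the test of the difference, for EPSTI1 (-2.43), IFIT1 (-1.50), GBP1 (-1.49), IFI44L (-1.05), IFIT3 (-0.88), DDX58 (-0.83), MX2 (-0.59), ISG15 (-0.47), ISG20 (0.46), STAT2 (0.60), XAF1 (0.99), PARP14 (1.02), RTP4 (1.35) and SAMD9L (1.45). It differed between P4 and shCtBP2 for EPSTI1 (-1.50), IFIT3 (-1.08), IFIT1 (-0.92), IFIT5 (0.40), SAMD9L (1.41) and RTP4 (1.54).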

How the results depend on the processing

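Counts are given as higher or lower members past both thresholds, or at the adjusted threshold, with medians of log2 ratios, and the cause of each change was not tested. Where no count over all genes stands beside them, the member counts do not show whether all genes moved alike. With normexp correction and loess, shCtBP2 had 0 lower past both thresholds and 2 at the adjusted threshold (median -0.056), HIPP 1 lower past both, P4 1 higher and 2 lower past both (median -0.059), and 9 members differed between HIPP and shCtBP2. Over all genes, 269, 280 and 585 passed both thresholds with that correction in place of 1807, 1944 and 2333. The brightest probe gave 1 higher with HIPP (IRF7). With slide as a block, shCtBP2 had 3 lower past both and 3 at the adjusted threshold, P4 had 0 higher past both, 1 higher and 4 lower at the adjusted threshold, and 9 members differed for HIPP and 0 for P4. With each treatment fitted alone, shCtBP2 had 3 lower past both, and P4 1 higher past both, with 2 higher and 5 lower at the adjusted threshold. The methods' t-test gave, after Benjamini-Hochberg adjustment, 1 lower past both, 3 higher and 1 lower at the adjusted threshold for shCtBP2, and 1 higher past both, 1 higher and 4 lower at the adjusted threshold for P4. With mean signals left uncorrected, the median of all genes was -0.21, -0.42 and -0.26. Of all genes, 80, 41 and 205 were higher and 183, 1575 and 378 lower past both thresholds, so most HIPP calls over all genes were lower. ShCtBP2 then had 0 higher past both, 0 higher at the adjusted threshold and 1 lower past both, HIPP 0 higher and 30 lower at the adjusted threshold (median -0.62), and P4 0 higher past both, 0 higher at the adjusted threshold and 2 lower past both (median -0.25), while 2 members differed for HIPP and 0 for P4. There the HIPP minus shCtBP2 difference turned to -0.20 for ISG20 and -0.033 for RTP4, and BST2 turned to -0.13 with shCtBP2 and -0.16 with P4, untested.

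With the replicate block, 1 member was higher past both thresholds with P4, and 9 were lower at the adjusted threshold with shCtBP2, 7 higher and 17 lower with HIPP and 3 higher with P4, while 16 and 7 differences passed. Same-numbered arrays had correlations of deviations from -0.01 to 0.46 (median 0.16), with 13 of 15 above 0.1. Every pair of shCtBP2 and P4 was above 0.1, whereas 4 of 5 pairs were for HIPP with either. The block changed no P4 difference other than that of IFITM3.

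Leaving out 1 array gave for shCtBP2 2 to 3 higher and 3 to 7 lower past both, 3 to 7 higher and 3 to 8 lower at the adjusted threshold, and a median of -0.21 to -0.09. It gave for HIPP 0 higher and 4 lower past both, 5 to 7 higher and 11 to 17 lower at the adjusted threshold, and a median of -0.28 to -0.20. It gave for P4 1 to 2 higher and 4 to 5 lower past both, 3 to 5 higher and 6 to 8 lower at the adjusted threshold, and a median of -0.13 to -0.07, the last without P4 replicate 1. Differences numbered 8 to 14 for HIPP and 3 to 6 for P4. Of the 18 calls, 3 were kept under all 27 alternatives (IFIT1 with HIPP and P4, IFIT3 with P4) and 9 with slide as a block. Genes near background, such as EPSTI1, RTP4, BST2 and XAF1, limit what the arrays can show.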
